A study of Rattus norvegicus with 44 samples.

Results

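The genes described here encode the ligands and receptors of 3 signalling systems that act in the early ovary. They are the fibroblast growth factors Fgf2 and Fgf7 with the receptors Fgfr1, Fgfr2 and Fgfr3, Kit ligand (Kitlg) with its receptor Kit, and glial cell line-derived neurotrophic factor (Gdnf) with its coreceptor Gfra1 and the receptor tyrosine kinase Ret. They were chosen by name, and the annotation paired each of the 10 genes with 1 probe set carrying that symbol alone, so that 10 of the 14324 genes with a probe set of their own were used, out of 27342 probe sets. Whole ovaries of 4-day-old female Sprague-Dawley rats were cultured for 2 days, and every array measured RNA pooled from the 2 or 3 ovaries of a single culture well. In the larger set of 38 arrays, 14 control samples received no growth factor and 8 treated groups of 3 samples received human AMH, human BMP4, rat FGF2, human FGF7, rat GDNF, mouse KITLG, rat LIF or rat PDGFab protein at 50 ng/ml for 48 h. A smaller set of 6 arrays, preprocessed apart, held 3 samples with human CTGF at 50 ng/ml and 3 controls of its own. The organs were whole, with all of their cell types, the pups pooled in a well came from a single litter, and the labels call the samples biological replicates.

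A primordial follicle is an arrested oocyte in a single layer of flat pregranulosa cells. Kit is a receptor tyrosine kinase on the oocyte surface, and Kitlg made by the surrounding somatic cells activates its PI3K arm. FGF2 binds several FGF receptors with heparan sulphate as a cofactor, whereas FGF7, a mesenchymal factor, acts on the epithelial splice form of Fgfr2. GDNF binds the membrane-anchored Gfra1, and the pair then engages Ret. Whole-organ RNA was measured, so that fewer cells of a type and less RNA per cell cannot be told apart in any value below.

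Values are log2 expression levels, on which 1 unit is a doubling. The median level of an array was 5.93 to 6.01 in the larger set and 6.29 to 6.35 in the CTGF set. The levels of separate probe sets depend on their probes and were not set against one another. The tissue label was checked on oocyte genes, and the mean level of 9 measured oocyte genes (Gdf9, Bmp15, Zp1, Zp3, Lhx8, Dppa3, Ddx4, Dazl and Nlrp5) had a median of 9.71 in the 14 controls. It was lowest on 4 arrays of the larger set, with 8.32 in control 1, 7.83 in FGF2 sample 1, 8.63 in KITLG sample 1 and 8.79 in LIF sample 1, below the 9.18 to 10.10 of the other 34 arrays. On the same 4 arrays the mean of 9 measured pregranulosa genes was 6.60 to 6.92, below the 7.39 to 8.71 of the other 34 arrays. The mean of 9 macrophage genes was 8.07 to 8.38, above the 6.58 to 7.94 of the others. Endothelium genes, at 6.52 to 6.85, lay below the 6.865 to 7.70 of the others. The GDNF family genes outside the members, at 5.97 to 6.02, lay above the 5.60 to 5.87 of the others. Surface epithelium genes were 8.13 to 8.40, overlapping the 7.46 to 8.35 of the others, whose median was 7.75. The differences from the controls named below for the 10 genes that moved by over 1.5 times without the treated array among them are also given without it.

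Across the 80 differences of a member gene between a growth factor and the 14 controls, 0 passed an adjusted p of 0.05 in limma. An unadjusted limma p under 0.05 was found for 9 of the 80, near the 9.57% of all probe sets over the same 8 comparisons. The study's own criteria asked for a p up to 0.05 before adjustment from the test named in its methods, linear means at least 10 apart and a ratio outside 0.83 to 1.2. Here limma's unadjusted p took the place of that test's p in these criteria unless stated, and 2 differences met them, both of Gfra1. With the methods' own test, 1 met them on log2 values and 1 on linear values, Gfra1 with LIF both times, where 3.41% and 3.36% of all probe sets did over the 8 comparisons. No treated group was free of overlap with the controls for any of the 10 genes. The share of all probe sets free of overlap is not given here, so that this count only describes the values. The median size of the 80 differences was 0.14 and the largest was 0.55 log2 units, with standard errors from 0.09 to 0.28. Over all 27342 probe sets the share past the adjusted threshold was 0% with AMH, 0.274% with BMP4, 0.94% with FGF2, 0.0805% with FGF7, 1.89% with GDNF, 0.0439% with KITLG, 0.267% with LIF and 0.234% with PDGFab. The share that met the study criteria with limma's p was 2.15% with AMH, 4.48% with BMP4, 6.79% with FGF2, 4.16% with FGF7, 5.99% with GDNF, 4.44% with KITLG, 3.82% with LIF and 5.33% with PDGFab. The 8 comparisons share their 14 controls, so that a control that stands apart enters each of them.

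**Figure D1:**
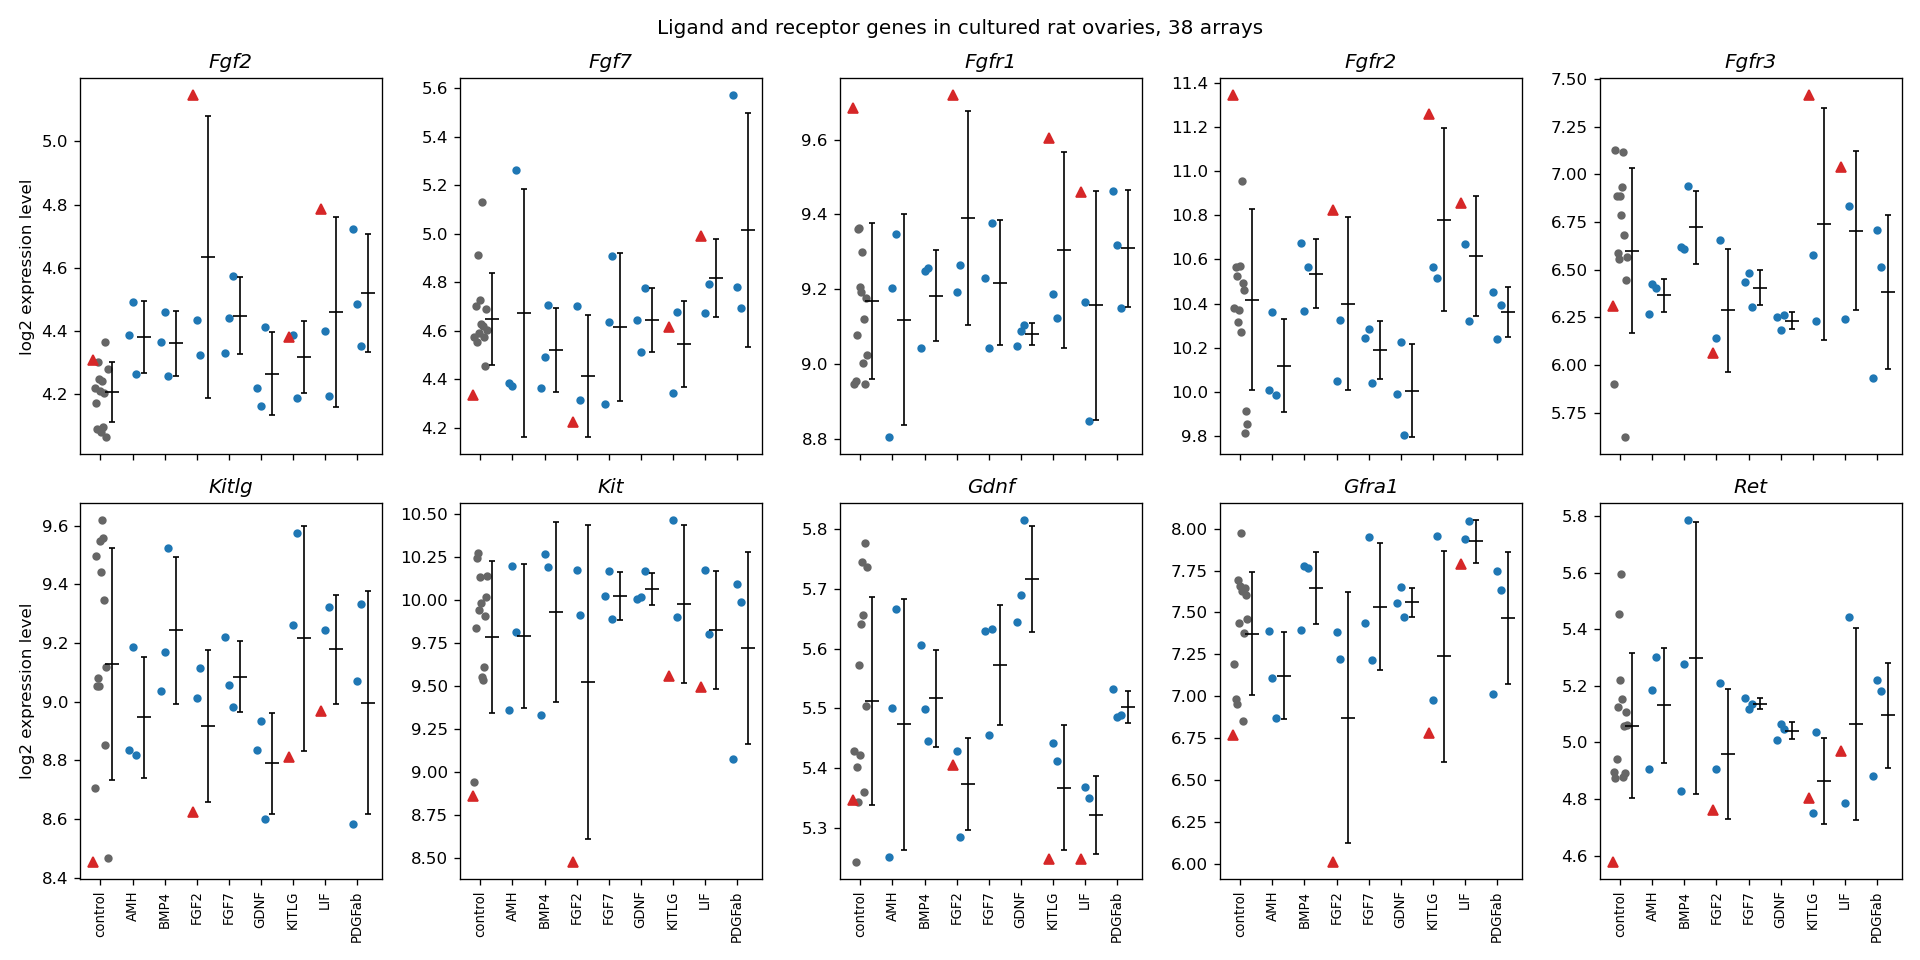
Log2 expression level of each of the 10 genes on the 38 arrays, by group, with 14 controls (grey) and 3 arrays for each growth factor (blue); the black mark beside each group is its mean ± SD, and red triangles are the 4 arrays lowest in oocyte genes. The treated groups overlapped the controls in all 10 panels, and Gfra1 had its highest group mean with LIF (7.92) and its lowest with FGF2 (6.87).

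**Figure D2:**
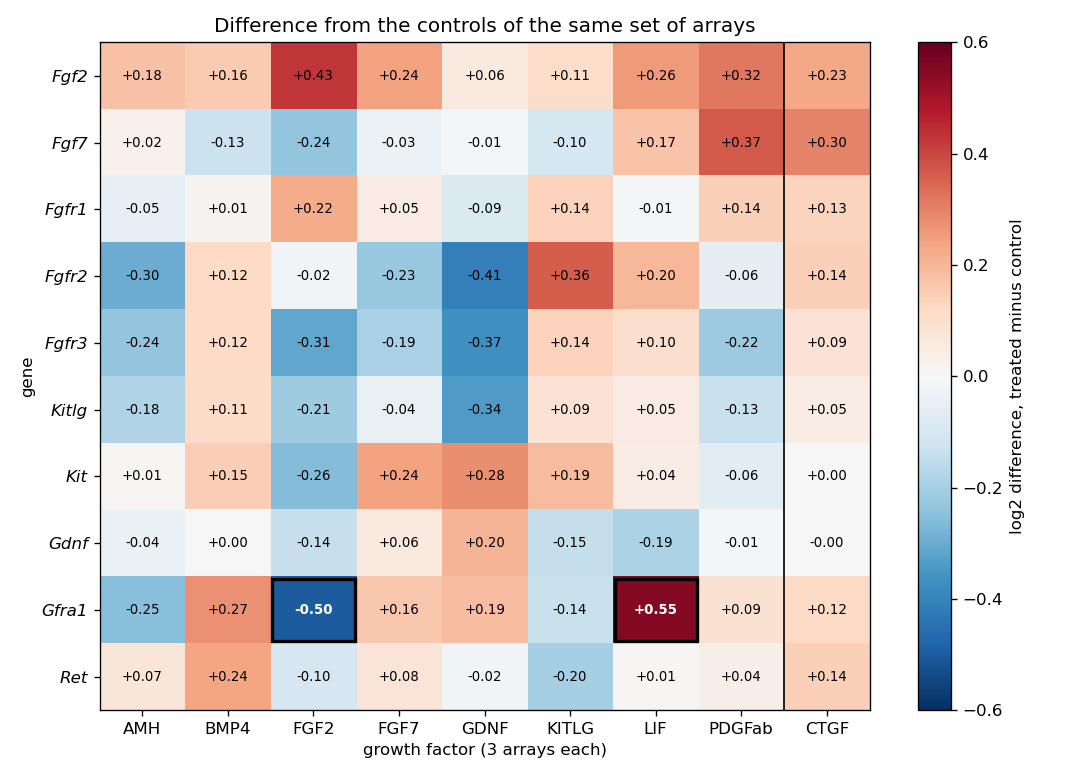
Log2 difference of each gene (rows) from the controls of its own set of arrays, for 8 growth factors against 14 controls and for CTGF, right of the line, against 3 controls. Frames mark the 2 differences that met the study criteria, Gfra1 with FGF2 (-0.50) and with LIF (0.55); none passed the adjusted threshold.

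Of the FGF ligands, Fgf2 was measured by a dim probe set, with 4.06, 4.21 and 4.36 as the lowest, median and highest level of the controls. In the cultures given FGF2 protein the levels were 5.15, 4.43 and 4.32, so that sample 1 stood far above the other 2 and only sample 3 lay within the controls. The mean was 0.43 log2 units (SE 0.11) above the control mean of 4.20 ± 0.09 (SD, n = 14), with an exact permutation p of 0.00294 and an adjusted p of 0.0532 in limma, and it did not pass. Sample 1 was one of the 4 arrays low in oocyte genes, and without it the difference was 0.17 with an adjusted p of 0.713. Quantile normalization brought the adjusted p to 0.0354.

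Fgf2 means were above the control mean in all 8 treated groups, and the controls ranked last of the 9 groups. The exact permutation p was also 0.00294 with FGF7 and with PDGFab, so that this p was not particular to FGF2 protein. By the same test it was 0.0162 with AMH, 0.0206 with BMP4, 0.0235 with LIF, 0.101 with KITLG and 0.365 with GDNF. With PDGFab, a ligand of PDGF receptors on stromal cells, the levels were 4.72, 4.49 and 4.35 and the difference was 0.32 (adjusted p = 0.263). Without the 4 arrays low in oocyte genes, control 1 among them, that difference was 0.32 with an adjusted p of 0.044. With FGF7 the 3 levels were 4.33, 4.44 and 4.57, which was 0.24 above the controls (adjusted p = 0.632). With LIF they were 4.79, 4.40 and 4.19, with a difference of 0.26 (adjusted p = 0.584), and LIF sample 1 was again the high array. Without that sample the difference with LIF was 0.09. GDNF, at 4.22, 4.16 and 4.41, lay closest to the controls, with a difference of 0.06. From the highest mean to the lowest, the groups were FGF2 (4.63 ± 0.45), PDGFab (4.52 ± 0.19), LIF (4.46 ± 0.30), FGF7 (4.45 ± 0.12), AMH (4.38 ± 0.11), BMP4 (4.36 ± 0.10), KITLG (4.32 ± 0.11), GDNF (4.26 ± 0.13) and the controls (4.20 ± 0.09). Here and in the orders that follow, values are means ± SD, with n = 3 for each growth factor and n = 14 for the controls.

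Fgf7, also a dim probe set, had 4.34, 4.61 and 5.13 as the lowest, median and highest control level. With FGF7 protein it was 4.30, 4.64 and 4.91, and the difference of -0.03 (SE 0.16) was smaller than the SD of 0.19 among controls. The largest difference was with PDGFab, where 5.57, 4.78 and 4.69 gave 0.37 above the controls (exact permutation p = 0.0412, adjusted p = 0.423 in limma). Only sample 1 exceeded every control, and without it the difference was 0.09. With FGF2 the levels were 4.22, 4.70 and 4.31, of which 2 lay below every control, with a mean 0.24 lower (adjusted p = 0.614), and the difference was -0.14 without sample 1. Ordered by mean level, PDGFab (5.02 ± 0.48), LIF (4.82 ± 0.16), AMH (4.67 ± 0.51), the controls (4.65 ± 0.19), GDNF (4.64 ± 0.13), FGF7 (4.62 ± 0.30), KITLG (4.55 ± 0.18), BMP4 (4.52 ± 0.17) and FGF2 (4.41 ± 0.25) followed one another.

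Among the receptors, Fgfr1, which binds FGF2, varied little, with 8.95, 9.15 and 9.69 as the lowest, median and highest level in the controls. The range of the 9 group means was 0.31 and the SD of the controls 0.21. With FGF2 it was 9.72, 9.19 and 9.26, which was 0.22 above the controls (adjusted p = 0.544), and 0.06 above them without sample 1. Its 3 highest levels came from arrays low in oocyte genes, at 9.72 (FGF2 sample 1), 9.69 (control 1) and 9.61 (KITLG sample 1). LIF sample 1 and PDGFab sample 1 came next, both at 9.46. In falling order of the mean, the groups were FGF2 (9.39 ± 0.29), PDGFab (9.31 ± 0.16), KITLG (9.31 ± 0.26), FGF7 (9.22 ± 0.17), BMP4 (9.18 ± 0.12), the controls (9.17 ± 0.21), LIF (9.16 ± 0.31), AMH (9.12 ± 0.28) and GDNF (9.08 ± 0.03).

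Fgfr2, the receptor of FGF7 in its epithelial form, spanned 9.82 to 11.34 in the controls with a median of 10.42. Controls 12, 13 and 14 were the 3 lowest, at 9.82, 9.91 and 9.86, and control 1 was the highest. With GDNF the levels were 9.99, 10.23 and 9.80, and all 3 lay below the control mean of 10.42 ± 0.41 (SD, n = 14). The difference was -0.41 (SE 0.20), with an exact permutation p of 0.118 and an adjusted p of 0.298. Without controls 12, 13 and 14 it was -0.56 with an adjusted p of 0.0356, and in the fit with the replicate number as a block, which leaves only controls 1 to 3, it was -0.76 with an adjusted p of 0.0247. All 3 samples were also below the control mean with AMH, at 10.01, 10.36 and 9.99 (difference -0.30, adjusted p = 1.00), and with FGF7, at 10.24, 10.28 and 10.04 (difference -0.23, adjusted p = 0.853). Without controls 12, 13 and 14 these were -0.45 and -0.38 and met the study criteria, with adjusted p of 0.76 and 0.606, and both also met them with the replicate block. Those 3 controls were the lowest for Fgfr2, so that leaving them out deepens every difference below the controls. The block keeps control 1, the highest. Neither setting is therefore separate support for a lower Fgfr2. With KITLG all 3 samples were above the control mean, at 11.26, 10.57 and 10.51, which gave 0.36 (adjusted p = 0.663), and the high array was again KITLG sample 1. Without it the difference with KITLG was 0.12 (adjusted p = 1.00). The order of the group means was KITLG (10.78 ± 0.41), LIF (10.61 ± 0.27), BMP4 (10.54 ± 0.16), the controls (10.42 ± 0.41), FGF2 (10.40 ± 0.39), PDGFab (10.36 ± 0.11), FGF7 (10.19 ± 0.13), AMH (10.12 ± 0.21) and GDNF (10.01 ± 0.21). GDNF and KITLG were the ends of the order of the 9 groups, 0.77 apart, with an adjusted p of 0.0995 for that pair, and without KITLG sample 1 they were 0.53 apart (adjusted p = 0.447). The study singled out Fgfr2 from these arrays, so that its values are not independent evidence of that choice.

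Fgfr3, a further FGF receptor, had 5.62, 6.63 and 7.13 as the lowest, median and highest control level. With GDNF it was 6.25, 6.18 and 6.26, a mean 0.37 lower with a SD of only 0.04 among the 3 samples (adjusted p = 0.43). With FGF2 it was 6.06, 6.14 and 6.66, which was 0.31 lower (adjusted p = 0.649), and the difference was -0.20 without sample 1. With KITLG the levels ran from 6.23 to 7.41, wider than in any other treated group. From the highest mean to the lowest, the groups were KITLG (6.74 ± 0.61), BMP4 (6.72 ± 0.19), LIF (6.71 ± 0.42), the controls (6.60 ± 0.43), FGF7 (6.41 ± 0.09), PDGFab (6.38 ± 0.41), AMH (6.37 ± 0.09), FGF2 (6.29 ± 0.32) and GDNF (6.23 ± 0.04).

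Kitlg, the ligand made by pregranulosa cells, had 8.46, 9.10 and 9.62 as the lowest, median and highest control level. With KITLG protein it was 8.81, 9.26 and 9.57, which was 0.09 above the controls (SE 0.20, adjusted p = 0.95) and 0.29 above them without sample 1. The lowest group mean was with GDNF, at 8.84, 8.94 and 8.60, where all 3 samples lay below the control mean and the difference was -0.34 (adjusted p = 0.398). Ordered by mean level, BMP4 (9.24 ± 0.25), KITLG (9.22 ± 0.38), LIF (9.18 ± 0.18), the controls (9.13 ± 0.40), FGF7 (9.09 ± 0.12), PDGFab (9.00 ± 0.38), AMH (8.95 ± 0.21), FGF2 (8.92 ± 0.26) and GDNF (8.79 ± 0.17) followed one another. Its 9 group means spanned 0.45, little more than the SD of 0.40 among the controls.

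Kit, the oocyte receptor of KITLG, had 8.86, 9.93 and 10.27 as the lowest, median and highest control level, and controls 1 and 2 (8.86 and 8.94) were well below the other 12, which began at 9.54. With KITLG protein it was 9.56, 10.47 and 9.90, which was 0.19 above the controls (SE 0.28, adjusted p = 0.92) and 0.40 above them without sample 1. With FGF2 it was 8.48, 10.18 and 9.92, so that 1 array was below every control and 2 were above the control mean. The difference with FGF2 was -0.26, and without FGF2 sample 1 it was 0.26, with the direction turned. GDNF had the highest group mean, from 10.01, 10.02 and 10.17, at 0.28 above the controls (adjusted p = 0.655). In falling order of the mean, the groups were GDNF (10.07 ± 0.09), FGF7 (10.03 ± 0.14), KITLG (9.98 ± 0.46), BMP4 (9.93 ± 0.52), LIF (9.83 ± 0.34), AMH (9.79 ± 0.42), the controls (9.78 ± 0.44), PDGFab (9.72 ± 0.56) and FGF2 (9.52 ± 0.91).

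Gdnf, a ligand first known from glia, had 5.24, 5.47 and 5.78 as the lowest, median and highest control level. In cultures given GDNF protein it was 5.64, 5.69 and 5.82, with 1 sample above every control. The difference was 0.20 (SE 0.09, exact permutation p = 0.0824, adjusted p = 0.247 in limma). With LIF it was 5.25, 5.37 and 5.35, all below the control mean, and 0.19 lower (adjusted p = 0.662). The order of the group means was GDNF (5.72 ± 0.09), FGF7 (5.57 ± 0.10), BMP4 (5.52 ± 0.08), the controls (5.51 ± 0.17), PDGFab (5.50 ± 0.03), AMH (5.47 ± 0.21), FGF2 (5.37 ± 0.08), KITLG (5.37 ± 0.10) and LIF (5.32 ± 0.06).

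Gfra1, which holds GDNF at the membrane, showed the 2 differences that met the study criteria with limma's p. The lowest, median and highest control levels were 6.77, 7.45 and 7.97. With LIF, a cytokine of the interleukin 6 family, the levels were 7.79, 7.94 and 8.04, of which 1 exceeded every control and all 3 exceeded the control mean of 7.37 ± 0.37 (SD, n = 14). The difference was 0.55 (SE 0.24), with an exact permutation p of 0.0191 and an adjusted p of 0.582. Without LIF sample 2 it was 0.54 and without LIF sample 3 it was 0.49, and in neither case were the criteria met. With FGF2 the levels were 6.01, 7.38 and 7.22, and the difference was -0.50 (SE 0.24, exact permutation p = 0.0926, adjusted p = 0.395). That value came from sample 1, the only FGF2 array below every control, and without it the difference was -0.07. Without the 4 arrays low in oocyte genes the difference with LIF was 0.57 and that with FGF2 was -0.12, and only the former still met the criteria. The means with FGF2 and with LIF were the ends of the order of groups, 1.05 apart, with an adjusted p of 0.384, and 0.62 apart without FGF2 sample 1. With GDNF protein Gfra1 was 7.55, 7.65 and 7.48, a difference of 0.19 (adjusted p = 0.731). From the highest mean to the lowest, the groups were LIF (7.92 ± 0.13), BMP4 (7.65 ± 0.22), GDNF (7.56 ± 0.09), FGF7 (7.54 ± 0.38), PDGFab (7.47 ± 0.40), the controls (7.37 ± 0.37), KITLG (7.24 ± 0.63), AMH (7.12 ± 0.26) and FGF2 (6.87 ± 0.75).

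Ret, the signalling receptor of the GDNF complex, was dim, with 4.58, 5.06 and 5.59 as the lowest, median and highest control level. With GDNF it was 5.01, 5.07 and 5.05, which was 0.02 below the controls. The 9 group means spanned 0.43, from BMP4 (4.83, 5.28 and 5.79) to KITLG (4.80, 4.75 and 5.04), and neither end passed (adjusted p = 0.724 and 0.803). Ordered by mean level, BMP4 (5.30 ± 0.48), FGF7 (5.14 ± 0.02), AMH (5.13 ± 0.20), PDGFab (5.10 ± 0.19), LIF (5.07 ± 0.34), the controls (5.06 ± 0.26), GDNF (5.04 ± 0.03), FGF2 (4.96 ± 0.23) and KITLG (4.86 ± 0.15) followed one another. In the order of the 9 groups no 2 neighbours differed past the adjusted threshold for any of the 10 genes. Neighbours in a ranked order lie closest together by construction, so that little else could be found. Of 280 differences between 2 treatments 0 passed, where 0.621% of all probe sets did over the same 28 pairs. An unadjusted limma p under 0.05 was found for 21 of the 280, near the 7.08% of all probe sets.

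A growth factor was next compared with the mean of the other 7 treatments, which leaves the controls out. In these contrasts the share of all probe sets past the adjusted threshold was 0.216% for FGF2, 0% for FGF7, 0% for KITLG and 11.7% for GDNF, and for FGF2 against FGF7 it was 0.0475%. Gdnf was 0.27 higher with GDNF than with the other treatments (SE 0.09, adjusted p = 0.0431 in limma), and no other of the 50 values passed. Quantile normalization lowered it to 0.22 with an adjusted p of 0.12, and leaving out a GDNF sample gave an adjusted p of 0.107 to 0.214. Of the 429 probe sets that passed and were higher with GDNF than in the controls, 403 were dimmer than the median probe set (level 5.98), as Gdnf was. The part of this shift of dim probe sets in the Gdnf value was not tested. Fgf2 was 0.24 higher with FGF2 than with the other treatments (adjusted p = 0.941), and the value was -0.01 without FGF2 sample 1. Fgf7 was 0.05 lower with FGF7. Kitlg was 0.19 higher and Kit 0.14 higher with KITLG, and 0.39 and 0.34 higher without KITLG sample 1. Gfra1 was 0.66 lower with FGF2 than with FGF7 (SE 0.31), and that did not pass either (adjusted p = 1.00). It was -0.23 without FGF2 sample 1.

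With CTGF, a matrix-associated protein, 0 of the 10 genes passed the adjusted threshold, 0 met the study criteria and 0 had an unadjusted p under 0.05, where 0%, 0.761% and 3.12% of all probe sets did so by these rules in limma. The smallest two-sided p that 3 against 3 samples allow in the exact permutation test is 0.10. Estimates were above 0 for 9 of the 10 genes, with the largest for Fgf7 at 0.30 (SE 0.39) and Fgf2 at 0.23 (SE 0.43). Fgf7 was 6.85, 5.53 and 5.63 with CTGF and 6.11, 5.71 and 5.30 in its controls, so that CTGF sample 1 set the difference. Fgf2 was 6.13, 4.56 and 4.73 with CTGF and 5.29, 4.89 and 4.54 in the controls, with the same array on top. Kit was 10.63, 10.64 and 10.41 with CTGF against 10.47, 10.60 and 10.60, a difference of 0.003 (SE 0.09). Fgfr2 was 10.71, 10.82 and 10.50 against 10.51, 10.68 and 10.41, and each CTGF sample was higher than the control of the same number (difference 0.14, adjusted p = 1.00). In the fit with the replicate block, 0 of the 10 passed.

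How the 10 genes varied among themselves was asked in the 14 controls, for 20 relations chosen by the genes' roles, with 100000 random pairings each. After Benjamini-Hochberg adjustment over the 20 relations 2 passed by Pearson's r and 2 by Spearman's rho. Kit followed the mean level of the 9 oocyte genes with r = 0.80 (permutation p = 0.000870, adjusted p = 0.0087) and rho = 0.84 (adjusted p = 0.0064). Without control 1 and control 9, the arrays farthest from the median oocyte level, r was 0.69, and over the deviations of all 38 arrays from their group means it was 0.82. Both Kit and the oocyte genes had their lowest levels on FGF2 sample 1 and control 1. In the CTGF set, with 6 arrays, r was 0.56. Ret followed Gfra1 with r = 0.77 (permutation p = 0.00072, adjusted p = 0.0087) and rho = 0.76 (adjusted p = 0.0239). For this pair r was 0.67 without controls 1 and 10, 0.56 over the 38 deviations and 0.56 in the CTGF set. After quantile normalization r in the controls fell to 0.52 for Ret with Gfra1 and was 0.80 for Kit with the oocyte genes.

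Kitlg and Kit, a ligand and its receptor in separate cells, had r = 0.27 in the controls (permutation p = 0.358, rho = -0.02). Gdnf had r = 0.41 with Gfra1 (permutation p = 0.146, rho = 0.30) and r = 0.30 with Ret (permutation p = 0.292, rho = 0.26), and none of the 3 passed. Fgfr2 had r = 0.63 with 7 measured surface epithelium genes and r = -0.66 with the 9 pregranulosa genes, neither of which passed (adjusted p = 0.0761 for both). The latter rested on the low arrays, since it was -0.36 without controls 1 and 2. Fgf2 and Fgfr3 had r = -0.56 as deposited and 0.12 after quantile normalization. Kit had r = 0.05 with 9 genes of mast cells, another cell type known to carry it. On KITLG samples the mast cell genes stood at 5.51 to 5.80 against 4.63 to 5.71 in the controls, with Kit not past its test there. Their part in the Kit value was not tested.

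**Figure D3:**
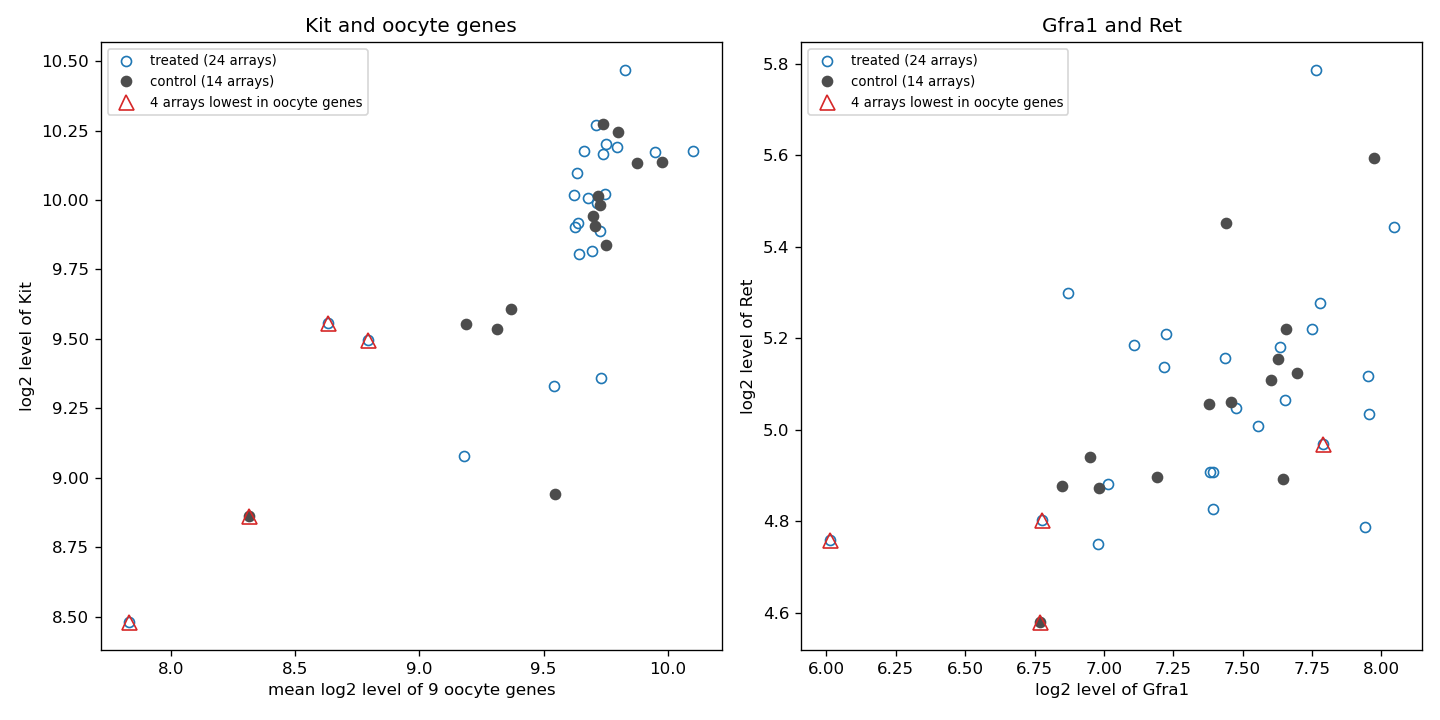
Left, log2 level of Kit against the mean log2 level of 9 oocyte genes; right, log2 level of Ret against that of Gfra1, with 1 point for each of 38 arrays. Filled points are the 14 controls (r = 0.80 and 0.77), open points the treated arrays and red triangles the 4 arrays lowest in oocyte genes, on which Kit was 8.48 to 9.56.

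The promoters of Kit, Gfra1 and Ret are shown, because these genes carried the 2 relations that passed. Each is the 250 bases before the RefSeq start on build GRCr8, and capitals mark the E-box CANNTG, the letters bound by basic helix-loop-helix factors such as the oocyte factors FIGLA and SOHLH1.
Kit, chr14:32978813-32979062, minus strand: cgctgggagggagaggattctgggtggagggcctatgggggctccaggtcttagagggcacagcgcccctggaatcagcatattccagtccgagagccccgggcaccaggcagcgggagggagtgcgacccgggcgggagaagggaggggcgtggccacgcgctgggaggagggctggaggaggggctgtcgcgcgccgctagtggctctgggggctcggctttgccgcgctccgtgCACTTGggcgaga
Gfra1, chr1:267555812-267556061, minus strand: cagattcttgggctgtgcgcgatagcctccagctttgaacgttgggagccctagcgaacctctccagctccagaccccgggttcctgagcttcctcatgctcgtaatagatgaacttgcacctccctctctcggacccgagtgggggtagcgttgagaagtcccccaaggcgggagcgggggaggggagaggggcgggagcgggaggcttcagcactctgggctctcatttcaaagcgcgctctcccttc
Ret, chr4:153040557-153040806, minus strand: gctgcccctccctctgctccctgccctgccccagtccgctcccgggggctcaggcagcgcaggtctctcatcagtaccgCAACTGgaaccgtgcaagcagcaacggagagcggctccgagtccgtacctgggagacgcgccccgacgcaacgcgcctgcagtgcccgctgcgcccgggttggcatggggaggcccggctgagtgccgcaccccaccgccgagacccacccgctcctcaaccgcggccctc
Kit and Ret each held 1 E-box and Gfra1 held 0. Of the 9 members with a promoter in the table, 8 held at least 1, and 65.5% of all 33469 promoter windows of this length do so on either strand, since the letters read the same in both directions. The NOBOX element, TAATTA or TAATTG on either strand, was in none of these 3 windows, and 4.86% and 7.31% of all windows held these letters. A match of letters is a description and shows no binding.

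For each gene the most similar genes over the 38 arrays were looked up among 8414 or 8415 other genes at or above the median level. Kit was most like Mtmr14, a phosphoinositide phosphatase (r = 0.97 over 38 arrays, 0.96 over the controls, 0.72 in the CTGF set), and Tuba3a, an alpha-tubulin (0.95, 0.94 and 0.51). Fgfr2 was most like Sema6d, a transmembrane semaphorin (0.95, 0.95 and 0.21), and Slc4a4, a bicarbonate transporter (0.95, 0.94 and -0.16). Fgfr3 was most like Cdkn1c, a cell cycle inhibitor (0.87, 0.85 and 0.84), and Smad6, an inhibitor of BMP signalling (0.84, 0.85 and 0.88). Gfra1 had Rtn4ip1 (0.70, 0.71 and 0.95) and Lhx8, an oocyte transcription factor (0.67, 0.74 and 0.57). Ret had Ppm1d, a phosphatase (0.78, 0.88 and 0.36), and Hey1, a Notch target (0.75, 0.71 and -0.34).

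Kitlg was most like Trib2, a pseudokinase (0.84, 0.86 and -0.73), and Pdia5 (0.77, 0.86 and 0.56). Fgfr1 had Trim3 (0.86, 0.92 and 0.91) and Vps26b, a retromer subunit (0.86, 0.90 and -0.28). Of the dim ligands, Fgf2 was most like Pdlim5 (0.86, 0.42 and -0.76) and Tspan4 (0.82, 0.53 and 0.36), Fgf7 was most like Specc1 (0.60, 0.46 and 0.82) and Dapk1 (0.52, 0.49 and 0.92), and Gdnf was most like Hnrnph3 (0.62, 0.41 and -0.28) and Dner (0.61, 0.63 and 0.52). These correlations share their libraries, and the highest of 8414 values is high by construction.

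Other genes of the same pathways were taken from 4 lists, written with earlier results of these data known. Their counts beside the shares of all probe sets are therefore descriptions and not independent evidence. Among 16 measured targets and feedback genes of FGF and ERK signalling, 8 rose with FGF2 past the adjusted threshold and 0 fell, and 11 met the study criteria, where 0.94% and 6.79% of all probe sets did so. The median difference of the list was 0.63, against -0.006 over all probe sets. The mean level of the list was 8.25 in FGF2 sample 1 and 7.24 and 7.35 in the other FGF2 samples. In the controls it ran from 6.70 to 7.43, with control 1 the highest and above both of those other FGF2 samples. KITLG sample 1 held 7.14 and LIF sample 1 held 7.24, where the 34 arrays not low in oocyte genes had a median of 6.87. Dusp6, a phosphatase of ERK, rose from 8.11 ± 0.40 (SD, n = 14) to 10.31 ± 0.95 (SD, n = 3), by 2.20 (adjusted p = 9.8e-05 in limma). Dusp4, of the same family, rose by 1.30 (adjusted p = 0.0357), the ETS factor Etv4 by 1.29 (adjusted p = 0.00173) and the feedback inhibitor Spry4 by 1.00 (adjusted p = 0.00733). Without FGF2 sample 1, or without the 4 arrays low in oocyte genes, 1 of the 8, Dusp6, passed. All 8 differences stayed above 0 without that sample, from 0.38 to 1.65, with 1.01 for Etv4, 0.82 for Dusp4 and 0.53 for Spry4. Of the 8, 4 passed with the replicate block, 2 with the FGF2 arrays and controls fitted alone and 1 with either form of the methods' own test. With FGF7 the same list had 0 calls and a median difference of -0.04, with KITLG 0 calls and 0.05, with GDNF 0 calls and -0.05, and with CTGF 0 calls and 0.002. PDGFab was next after FGF2, with a median of 0.22 and 3 genes at the study criteria, Dusp6 among them at 1.01 (adjusted p = 0.128).

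**Figure D4:**
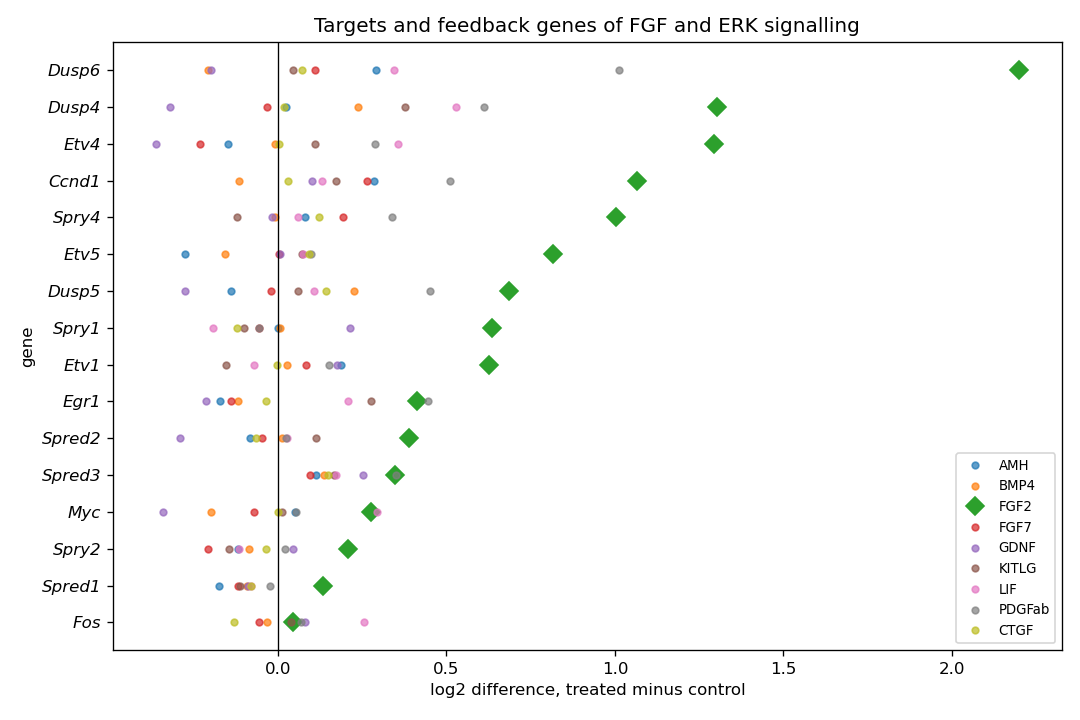
Log2 difference from the controls (horizontal axis) of 16 measured targets and feedback genes of FGF and ERK signalling, for FGF2 (green diamonds), the 7 other growth factors of the larger set and CTGF (dots, coloured by factor). FGF2 gave the highest value for each of the 8 genes that passed, from 0.63 to 2.20, and these 8 were picked because they passed with FGF2.

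Among 42 other measured genes of the FGF system, 1 passed with FGF2 and 1 with LIF. Sdc4, a heparan sulphate carrier, rose by 0.91 with FGF2 (adjusted p = 0.0455), and without FGF2 sample 1 the difference was 0.82 with an adjusted p of 0.31, and without FGF2 sample 3 it was 0.87 with an adjusted p of 0.169. Sulf1, which removes sulphate from heparan sulphate, rose by 0.76 with LIF (adjusted p = 0.0335), and without LIF sample 1 the difference was 0.58 with an adjusted p of 0.919, and without LIF sample 2 it was 0.80 with an adjusted p of 0.156. Neither passed with the methods' own test, the replicate block, the treated arrays and controls fitted alone, or controls 12, 13 and 14 left out. Of 30 transducers downstream of KIT in the PI3K and ERK arms, 0 passed with KITLG and the median difference was 0.11. The study criteria were met by 1 of the 30, a share below the 4.44% of all probe sets, and it was Foxo3, the factor that holds oocytes in arrest (0.39, adjusted p = 0.437). Of 15 other genes of the GDNF family, 0 passed with GDNF and 1 met the criteria, near the 5.99% of all probe sets. It was Ncam1, an alternative GDNF receptor (-0.50, adjusted p = 0.287).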

How the data were processed

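RNA of whole cultured rat ovaries was measured on Affymetrix Rat Gene arrays. The deposited values are log2 expression levels that the authors computed in Partek with RMA, including a GC adjustment (tool names per the labels and the methods), separately for the set of 38 arrays and the set of 6. They were used as deposited, and comparisons stayed within a set. The arrays carry 27342 probe sets, 15097 with 1 gene symbol, 323 with several and 11922 with none. Of a gene's probe sets the brightest over the 38 arrays was used.

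Groups came from the sample labels. Differences were fitted in R 4.3.3 with limma 3.58.1 (lmFit, eBayes), the 38 arrays together, and Benjamini-Hochberg adjustment ran over the 27342 probe sets, with calls made at 0.05. Exact two-sided permutation tests used all 680 splits of 3 against 14 samples, with 0.00147 as the smallest p, or all 20 of 3 against 3. Correlations, tables and plots used Python 3.11.15 with numpy 2.4.6, scipy 1.17.1, pandas 2.3.3 and matplotlib 3.10.9. The fit and the random pairings were tested on simulated data. The number of arrays limits the precision.

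The 10 genes, the pathway and cell type lists and the tests were chosen with earlier results of these data known. Named genes were the 10, pathway genes past the adjusted threshold (at most 4 per list and comparison), the 2 genes most like each member, and markers beside a result; Foxo3, Ncam1 and Dusp6 with PDGFab were added after their values were seen. For GDNF the paper gives 2 replicates and the labels give 3, all of which were used. Replicate numbers paired the samples of the CTGF set (correlations of deviations 0.842, 0.623 and 0.647) and not those of the larger set as a whole (-0.555 to 0.74). There, sample 1 of FGF2, KITLG and LIF correlated with control 1 at 0.74, 0.615 and 0.694, for each the highest value with any control, and these are the 4 arrays lowest in oocyte genes. The methods state that a culture day held controls and some of the growth factors, the labels give no day, and whether these arrays share one was not tested. Alternatives tried were a t-test as in the methods (Student's, equal variances assumed), on log2 or linear values, a fit of treated and control arrays alone, a replicate block, array quality weights, a variance trend with robust estimation, quantile normalization, median centring, leaving out the dimmest 1 in 3 probe sets, single arrays or controls 12, 13 and 14, and, added after seeing the data, leaving out the 4 arrays lowest in oocyte genes.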

Additional observations from a re-analysis of the deposited data

Results flagged for a closer look

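A single difference between treatments passed its test. Gdnf was higher with GDNF (5.64, 5.69 and 5.82) than with the other 7 treatments by 0.27 log2 units (adjusted p = 0.0431 in limma). Its level was also higher than the control mean in 3 of 3 samples. In the same contrast 11.7% of all probe sets passed the adjusted threshold, so that the value does not set Gdnf apart from the array. The difference did not pass after quantile normalization (0.22, adjusted p = 0.12 in limma) or with a GDNF sample left out. No formal outlier test was run on groups of 3 or of 14 samples.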

How the results depend on the processing

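With the 8 growth factors, the 0 member differences past the adjusted threshold became 3 with array quality weights, 2 in the fit with the replicate block, and 1 each with the variance trend, quantile normalization, median centring, the dimmest 1 in 3 probe sets left out, without controls 12, 13 and 14, and without the 4 arrays lowest in oocyte genes. Leaving out single arrays gave 0 to 1. The 2 differences at the study criteria became 4 with array quality weights and with the replicate block, 6 without controls 12, 13 and 14, and 1 with either form of the methods' t-test and with treated and control arrays alone; leaving out single arrays gave 1 to 4. With CTGF both counts were 0 in every alternative, the replicate block included. The share of all probe sets called in each alternative is not given here, so that these counts cannot be read as a result about the 10 genes. Each gene has 1 probe set, so that a mean over probe sets gives the same values and was not run. Of 2940 recomputed member differences, 2861 kept their call and moved by less than the SD between samples, 36 gained a call, 10 lost one, 33 moved by more, 26 of them with the replicate block, and 0 reversed a call. Fgf2 with FGF2 and Fgfr2 with GDNF each gained a call in 9 alternatives, and Gfra1 with FGF2 lost its call in 8. With the replicate block, which leaves only controls 1 to 3, Fgfr2 (-0.76) and Gdnf (0.38) with GDNF passed. The causes were not tested. Fgf2, Fgf7, Gdnf and Ret were dimmer than the median probe set, and no detection call was used.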
